A study of Bos taurus with 2 samples.

Results

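The MHC class II genes of cattle (BoLA) were examined on 2 microarrays of mammary tissue, 1 from tissue with mastitis and 1 from normal tissue. Members were taken by name, as probes whose gene name in the files, or the current symbol of the RefSeq entry they cite, was BOLA-DRA, BOLA-DRB3, BOLA-DQA5, BOLA-DQB, BOLA-DMA, BOLA-DMB, BOLA-DOA, BOLA-DOB, CD74 or CIITA. These 10 genes had 26 probes of 43653 on the array, and 9 of the 10 were among the 12244 genes measured on both arrays. The animals were female adult Chinese Holstein cows in late lactation that had received no recombinant somatotropin, and the tissue was taken after slaughter. The submitters give 3 cows per group, but the sources used here do not say which cow or cows stand behind each array. The cows with mastitis had clinical signs and had received antibiotics, whereas the healthy cows had received none, so disease and treatment cannot be told apart. Each condition has 1 array, so the differences lack a replicate check and carry no p-value.

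MHC class II molecules are pairs of an alpha and a beta chain that display peptides from extracellular proteins to CD4 T cells. They are made constitutively by dendritic cells, macrophages and B cells, and other cells, epithelial cells among them, can make them after exposure to interferon gamma. The classical molecules are DR and DQ. CD74, the invariant chain, fills their groove and guides them to the endosome, DM then exchanges its remnant for peptide, and DO restrains DM. CIITA is the transactivator that switches the whole set on. In cattle the DQ genes are highly polymorphic and duplicated on some haplotypes, DRB3 is the main expressed and most polymorphic DRB gene, and DRA varies little.

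Each array was read in a single colour (Cy3) and each spot is given as a net signal, the brightness left after the scanner software subtracted a constant background. A probe was called well above background when its net signal exceeded the mean of 153 negative control spots by over 2.6 SD, which was 7.10 for mastitis and 8.74 for normal. The arrays differed in brightness, with 75th percentiles of 210 and 128, and each was divided by its own. Log2 ratios are mastitis over normal after this scaling, and a gene takes the mean ratio of its probes measured on both arrays. Log2 ratios had a pooled SD of 0.17 between replicate spots of 1 probe and of 0.45 between different probes of 1 gene. The former is technical, and neither measures a spread between animals. What the latter holds besides technical spread was not tested. Over all measured genes the median was -0.15, so ratios are also read against that value. Of 13 markers of secretory epithelium, 12 were measured, with 5 above 0, against 38.6% of all genes, and 7 below. EPCAM was at 0.12 (SD 0.16) and KRT8 at 0.36 with a larger spread between its probes (SD 0.67), while the milk protein gene CSN2 was at -7.53 and LALBA, another, failed the background threshold on the mastitis array.

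The classical DR genes, CD74 and DMB were moderately brighter on the mastitis array, by 1.46-fold to 1.61-fold, and the remaining measured members lay between 1.14-fold higher and a log2 ratio of -0.45. None of the 9 measured members was at least 2-fold higher and none was at least 2-fold lower, where 2.26% and 9.14% of all measured genes were. At 1.5-fold, 1 member (BOLA-DRB3) was higher and none was lower, against 7.66% and 21.5% of all genes. Of the 9, 6 had a log2 ratio above 0, which held for 38.6% of all genes. The median of the members was 0.19, which is 0.34 above that of all genes. In whole tissue, more or fewer cells of a type and more or less RNA per cell cannot be told apart.

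Before scaling, all 19 member probes measured on both arrays were brighter on the mastitis array, from 1.20-fold to 3.23-fold with a median of 2.31-fold. The median of all 27878 measured probes was 1.53-fold, so most of the array leaned the same way before scaling. After scaling, 15 of the 19 probes had a ratio above 0 and 4 had one below, against 43.1% of all measured probes above 0. None was at least 2-fold higher, where 2.89% of all measured probes were. A further 2 member probes passed the background threshold with mastitis tissue alone, 5 passed it on neither array, and none was saturated. Of all probes on the array, 70.2% passed it for mastitis and 67.0% for normal, so these 2 are not read as a difference of the members.

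**Figure D1:**
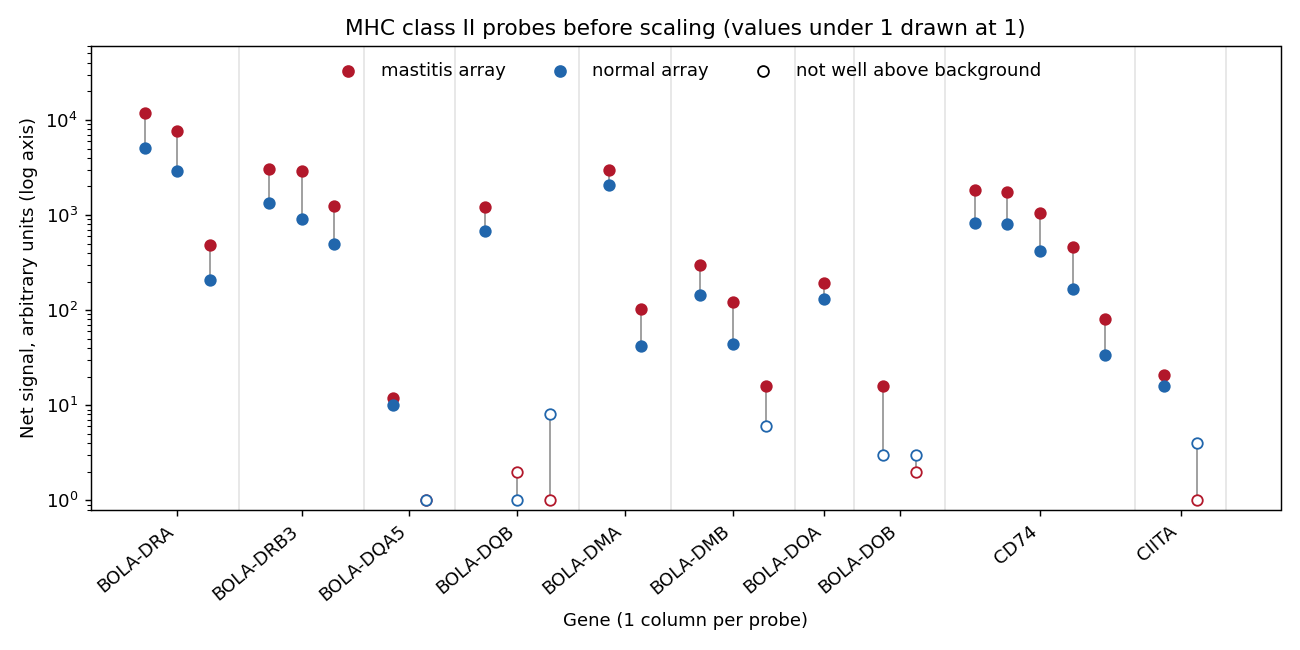
Net signal before scaling (vertical log axis, arbitrary units) of each of the 26 probes of the 10 class II genes, with 1 column per probe, red for the mastitis array and blue for the normal array. Open circles were not well above background, and values under 1 are drawn at 1. All 19 columns with both circles filled have the red one on top, and the widest gap among them (3.23-fold) belongs to BOLA-DRB3.

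BOLA-DRA, the alpha chain shared by all DR molecules, was measured by 3 probes. Its brightest probe read 11955 for mastitis against 5042 for normal in net signal. The others had 7677 against 2915, and 482 against 209. The 3 probes differed widely in brightness but little in their ratio, at 0.53, 0.68 and 0.49 on the log2 scale. The gene had a log2 ratio of 0.57 (SD 0.10 over 3 probes), or 1.48-fold higher, and 8.07% of all measured genes had a higher ratio.

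BOLA-DRB3, its beta chain partner, gave 3045 against 1352, 2908 against 900, and 1254 against 499 for mastitis and normal. The second of these probes stands out, with a log2 ratio of 0.98, just short of 2-fold, while the others were at 0.46 and 0.62. The gene had the highest ratio of the members, 0.68 (SD 0.27 over 3 probes), or 1.61-fold higher, and 5.69% of all genes lay above it. The difference between the alpha and beta chain is smaller than the spread among the DRB3 probes. The DRB3 alleles of the cows, and how well each probe matches them, were not analysed here.

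The DQ genes were read less evenly. Of the 3 BOLA-DQB probes only 1 was well above background, at 1225 for mastitis and 687 for normal. The other two gave 2 against 0, and 0 against 8. The measured probe had a log2 ratio of 0.12, or 1.09-fold higher, with 29.9% of all genes above it. BOLA-DQA5, a DQ alpha chain, was dim on both arrays. Its measured probe had net signals of 12 and 10, close to the thresholds of 7.10 and 8.74, and its other probe was below 0 on both. Its log2 ratio of -0.45 was the lowest of the members and rests on these 2 small signals.

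CD74 was the best covered member, with 5 probes that all lay above 0 after scaling. Its net signals for mastitis and normal were 1846 against 822, 1733 against 801, 1057 against 415, 465 against 165, and 81 against 34. The log2 ratios ran from 0.40 to 0.78, with no probe near 0 and none at 2-fold. The gene stood at 0.56 (SD 0.15 over 5 probes), or 1.48-fold higher, close to BOLA-DRA at 0.57.

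The subunits of DM, the peptide exchange factor, differed in how well their probes matched each other. BOLA-DMB had net signals of 297 against 144 and 123 against 44, with log2 ratios of 0.33 and 0.77 and a gene value of 0.55 (SD 0.31, 2 probes), or 1.46-fold higher. Its remaining probe, at 16 against 6, passed the background threshold with mastitis tissue alone. BOLA-DMA had a bright probe at 2947 against 2076 and a dim one at 104 against 42. These went opposite ways, at -0.21 and 0.59, so the gene value of 0.19 (SD 0.57) is smaller than the spread of its own probes. Taking the brightest probe in place of the mean turns BOLA-DMA to -0.21.

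DO, which restrains DM and is found mainly in B cells and some dendritic cells, was read by few probes. BOLA-DOA had 1 probe, with net signals of 192 and 130 and a log2 ratio of -0.15, the same as the median of all genes to 2 decimals. BOLA-DOB was not measured on both arrays. Its better probe read 16 for mastitis and 3 for normal, which gives a bound of at least 1.08-fold higher against the lowest signal that passed the background threshold on the normal array. Its second probe was at 2 and 3.

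CIITA, the transactivator, was near background on both arrays. Its measured probe had net signals of 21 and 16 and a log2 ratio of -0.32, and 62.5% of all genes had a higher ratio. Its other probe was at -1 and 4. The ratio of the transactivator thus rests on signals near the thresholds of 7.10 and 8.74.

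**Figure D2:**
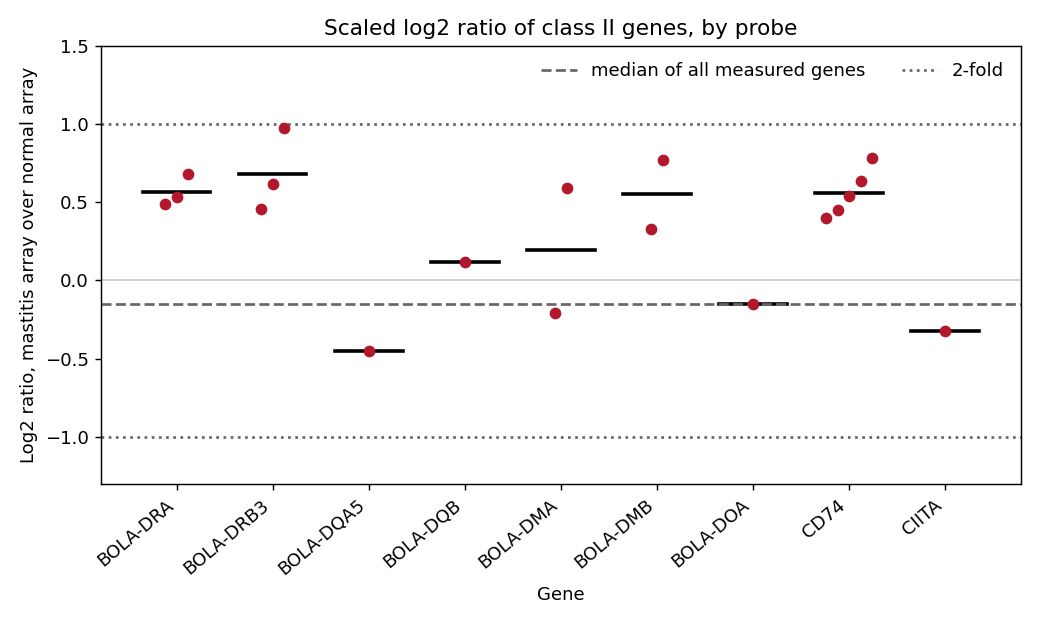
The 9 class II genes measured on both arrays, with the scaled log2 ratio of mastitis to normal on the vertical axis. Each point is a probe and each bar the mean of a gene, with the median over all measured genes (-0.15) dashed and 2-fold dotted. The 11 probes of BOLA-DRA, BOLA-DRB3 and CD74 lie between 0.40 and 0.98, the probes of BOLA-DMA lie on opposite sides of 0, and no point reaches the 2-fold lines.

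Ratios on these arrays varied with brightness, and the dim members lay where dim probes in general lay. When all measured probes were ordered by brightness into 5 bins of about equal size, the dimmest bin had a median log2 ratio of -0.42. The probes of CIITA and BOLA-DQA5 were the 2 members in it, at -0.32 and -0.45. The brightest bin had a median of -0.12 and held 10 member probes with a median of 0.49, of which 9 were above that of the bin. The member probes in the bins between had medians of 0.54 (1 probe), 0.68 (2 probes) and 0.41 (4 probes), against -0.096, 0.023 and 0.063 for all probes there. The part of brightness in the ratios of the members was not tested.

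**Figure D3:**
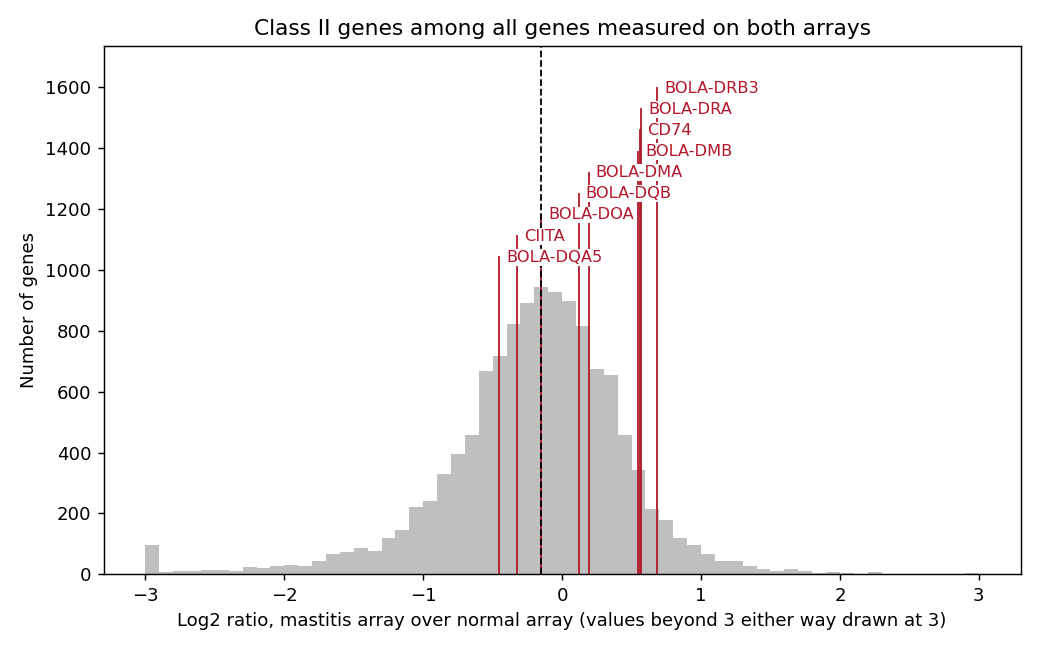
Number of genes (vertical axis) by scaled log2 ratio of mastitis to normal (horizontal axis) for the 12244 genes measured on both arrays, in grey, with a red line at each class II gene and the median over all of them dashed. BOLA-DRB3, BOLA-DRA, CD74 and BOLA-DMB lie together on the right shoulder, with 5.69% to 8.53% of genes above them, while BOLA-DOA lies at the median and CIITA and BOLA-DQA5 lie below it.

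The array also carried 20 probes that its annotation describes as class II but that belong to none of the 10 genes. They were collected after their values had been seen, and they share sequence with the members to an extent not analysed here. Of these, 14 were measured on both arrays and 13 had a log2 ratio above 0, against 43.1% of all measured probes. None of the 14 was at least 2-fold apart, and their median was 0.46. Of 5 such probes named BOLA-DQA1, a DQ alpha chain, 4 were measured, with net signals of 513 against 234, 189 against 60, 143 against 50, and 109 against 47. Their log2 ratios ran from 0.42 to 0.94. A further measured probe of that name, which the annotation describes otherwise, brought the gene to 0.54 (SD 0.35, 5 probes). BOLA-DQA2 had net signals of 3288 against 1527 and 495 against 211, and a log2 ratio of 0.45 (SD 0.09, 2 probes). DSB, which encodes a class II beta chain, was at 0.49 from 1 probe (1046 against 453).

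Probes for DQ beta chains outside BOLA-DQB spread widely. Those named BLA-DQB, now BOLA-DQB1, had net signals of 4284 against 1372, 1776 against 907, and 859 against 464, with log2 ratios of 0.93, 0.26 and 0.17. An unnamed probe to another DQB clone gave 2391 against 1806 and was the only one of the 14 below 0, at -0.31. A measured probe named LA-DQB gave 288 against 150, at 0.23. All measured DQB probes but the unnamed one were thus above 0. The -0.31 of the unnamed probe is smaller in size than the SD of 0.45 between different probes of 1 gene. BOLA-DYA and BOLA-DYB, ruminant class II genes that lie apart from DR and DQ and beside DO and DM, passed the background threshold on neither array (net signals of 0 and 7, and of 7 and 7).

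Genes that regulate class II transcription and turnover were within 2-fold where measured. Of 16 in a textbook list, 13 were measured, with a median log2 ratio of 0.10, which was -0.03 with the normexp background correction. Relative to all genes these medians were at 0.25 and 0.16, where the members as reported were at 0.34. As reported, 10 of the 13 lay above the median of all genes. The RFX complex binds the class II promoters and recruits CIITA, and its subunits RFX5, RFXANK and RFXAP were at -0.12, 0.10 and -0.24. The subunits of NF-Y, which binds the same promoters, were at 0.22 (NFYA), 0.11 (NFYB) and -0.33 (NFYC, SD 0.72 over its probes), and CREB1 was at -0.17. The coactivator gene CREBBP had the highest ratio of the list, 0.47 (SD 0.17), which was 0.20 with normexp. ZXDC, a cofactor of CIITA, was at 0.40 from 1 probe (52 against 24) and turned to -0.12 with normexp. CD83, which protects surface class II from turnover, was at 0.32, and the ligase gene MARCHF1, which promotes it, passed the background threshold on neither array.

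The interferon gamma axis, the main inducer of CIITA outside professional presenting cells, showed a split between its receptor chains. IFNG itself was below the background threshold on both arrays, with median net signals of 4 and 4.5. IFNGR1, the ligand-binding chain, had a log2 ratio of 0.74 (SD 0.10), or 1.67-fold higher, with median net signals of 629 and 230. IFNGR2, the signalling chain, was 2.34-fold lower from 1 probe (299 against 427), and within 2-fold with normexp (-0.98 on the log2 scale) or spike-in scaling (-0.96). The receptor kinase genes JAK1 and JAK2 were at -0.096 and -0.26, and IRF1, a transcription factor induced by interferon gamma, was at -0.36 (SD 0.51). IL18, which promotes interferon gamma production, was at 0.59. IL10, which lowers class II at the cell surface, was at -0.43 from 1 of 2 probes (180 against 148). It was above 0 in 2 of 17 alternative settings. The highest value, 1.49, came from the authors' table of log2 values as it stands, whose rows carry the values of the next probe. The paper reports IL10 as higher with mastitis, on the array and by RT-PCR. Of 14 genes in the list, 11 were measured. None was at least 2-fold higher and 1 was at least 2-fold lower, against 2.26% and 9.14% of all genes.

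Genes of antigen processing for class II were mostly within 2-fold. Of 21 genes, 20 were measured, 1 was at least 2-fold higher and 1 was at least 2-fold lower, against 2.26% and 9.14% of all genes. The median was 0.15, or 0.30 relative to all genes. CTSS, the protease that trims the invariant chain in presenting cells, had a log2 ratio of 0.42 (SD 0.15), with median net signals of 2446 and 1133. LGMN, an asparagine-specific protease of the endosome, was at 0.43 (SD 0.13), and IFI30, a lysosomal thiol reductase induced by interferon gamma, at 0.28 (SD 0.04). The cathepsin gene CTSH was 2.28-fold higher (SD 0.07 on the log2 scale), with median net signals of 718 and 188. CTSL, which trims the invariant chain in other cell types, was 6.48-fold lower from 1 probe with net signals of 20 and 79, and at -1.35 on the log2 scale with normexp. CD82 and SPPL2A, the latter a protease that clears the last fragment of CD74, were at -0.82 and -0.80.

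Of 18 MHC class I genes, 17 were measured and 2 had a log2 ratio above 0, where 38.6% of all genes had, but 7 of the 17 lay above the median of all genes. None was at least 2-fold higher and 2 were at least 2-fold lower, against 2.26% and 9.14% of all genes. The median of the 17 was -0.33. Relative to all genes this median was at -0.18, and at -0.062 with quantile normalization or with normexp. B2M, the light chain of class I molecules, was at -0.45 (SD 0.28), and TAP1, the peptide transporter, at -0.34 (SD 0.16). The immunoproteasome gene PSMB9 was 8.39-fold lower (SD 0.20 on the log2 scale). This came from 2 of its 4 probes, with median net signals of 1253 and 6424. Other immunoproteasome genes of the list, PSMB8 and PSMB10, were within 2-fold, at -0.092 and -0.41. PDIA3, a chaperone of class I loading, was at -0.59, while CALR, another, was 2.07-fold lower, but within 2-fold with normexp (-0.82) or spike-in scaling (-0.78). JSP.1, a class I gene, was at 0.66, but its probes differed from each other by as much (SD 0.65). NLRC5, the counterpart of CIITA for class I, had no probe.

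Molecules that meet class II on T cells, and co-stimulatory molecules beside it, were within 2-fold with 1 exception. CD4, the receptor that binds class II, had a log2 ratio of -0.68 from 1 of its 5 probes (7704 against 7532). The other CD4 probes were not measured on both arrays, so this value rests on 1 probe. LAG3, an inhibitory receptor for class II, was 2.13-fold lower from net signals of 10 and 13, but within 2-fold with normexp (-0.55) or spike-in scaling (-0.83). CD86 and CD40, which activated presenting cells carry, were at 0.23 (SD 0.29, and 0.011 with normexp) and -0.27, and CD80 was below the background threshold on both. CD58, an adhesion ligand, was at 0.50, and CD28, the receptor of CD80 and CD86, was at -0.87 from net signals of 9 and 10. Of 14 genes, 8 were measured, with a median of -0.30, or -0.15 relative to all genes. None was at least 2-fold higher and 1 was at least 2-fold lower, against 2.26% and 9.14% of all genes. The sign of the median depended on the setting. Relative to all genes it was 0.49 for the 5 genes with net signals of at least 50 on both arrays, and 0.08 with the brightest probe.

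The markers of cells that carry class II did not all go the same way. Of 16 macrophage markers, 13 were measured, with a median log2 ratio of 0.89, or 1.04 relative to all genes. Of these, 12 were above 0, 5 were at least 2-fold higher and none was at least 2-fold lower. The shares over all genes were 38.6%, 2.26% and 9.14%. The scavenger receptor gene CD163 was 3.40-fold higher, the complement receptor gene VSIG4 2.90-fold, the sialic acid receptor gene SIGLEC1 2.35-fold, and C1QA, a chain of complement C1q, 2.11-fold higher. With normexp CD163 and SIGLEC1, both dim on the normal array (net signals of 21 and 14), were at 0.61 and 0.16 on the log2 scale. CD68 was at 0.44 (SD 0.26) and CD14 at -0.77 (SD 0.51). MARCO was below the background threshold on both. The summed signal of the list, in units of the 75th percentile of each array, was 104 for mastitis and 59.7 for normal. This sum gives most weight to the brightest genes, here C1QA, C1QB and C1QC. Their median net signals were 5829, 5424 and 4608 for mastitis, and 1711, 1592 and 1508 for normal.

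Dendritic cell markers were measured for 11 of 17 genes, all within 2-fold, with summed signals of 9.04 and 8.18. Their median was -0.23, which relative to all genes was -0.085, and -0.0018 with normexp. FLT3, the receptor that supports dendritic cells, was at -0.48 (SD 0.02), CCR7, which guides mature dendritic cells to lymph nodes, at 0.72 (SD 0.16), and CD209, a lectin shared with macrophages, at 0.87 from net signals of 27 and 9. With normexp CCR7 was at 0.12 and CD209 turned to -0.17. CD1A and IRF4 were at -0.59 and -0.96. XCR1 and ZBTB46, which mark conventional dendritic cells, were below the background threshold on both arrays, and ITGAX and CLEC9A had no probe.

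B cell markers were split. Of 16, 11 were measured, 5 were at least 2-fold higher and 1 was at least 2-fold lower, against 2.26% and 9.14% of all genes. Their median was -0.27, or -0.12 relative to all genes, but 0.50 relative to all genes with only probes named by accession. The summed signals were 13.6 and 14.6. The kinase gene BLK was 2.62-fold higher, and the adapter genes BLNK and BANK1 were 2.08-fold and 2.07-fold higher. MS4A1, the surface marker CD20, was 2.26-fold lower from net signals of 16 and 22, and CD79A, a chain of the B cell receptor complex, was at -0.39. With normexp none of the 11 was 2-fold apart. CR2, FCRLA and SPIB were not measured on both arrays.

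The pan-leukocyte gene PTPRC was at 0.19 (SD 0.30), and all 10 measured pan-leukocyte markers were within 2-fold. They had a median of 0.21, or 0.35 relative to all genes, and summed signals of 67.0 and 59.2. CD53 was the highest of them at 0.54 (SD 0.05) and LCP1 the lowest at -0.66. All 13 T cell markers were measured and within 2-fold. Their median was 0.035, or 0.18 relative to all genes, with summed signals of 13.1 and 12.1, and CD3E was at 0.032 (-0.025 with normexp). The part of these cells in the class II values was not tested.

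**Figure D4:**
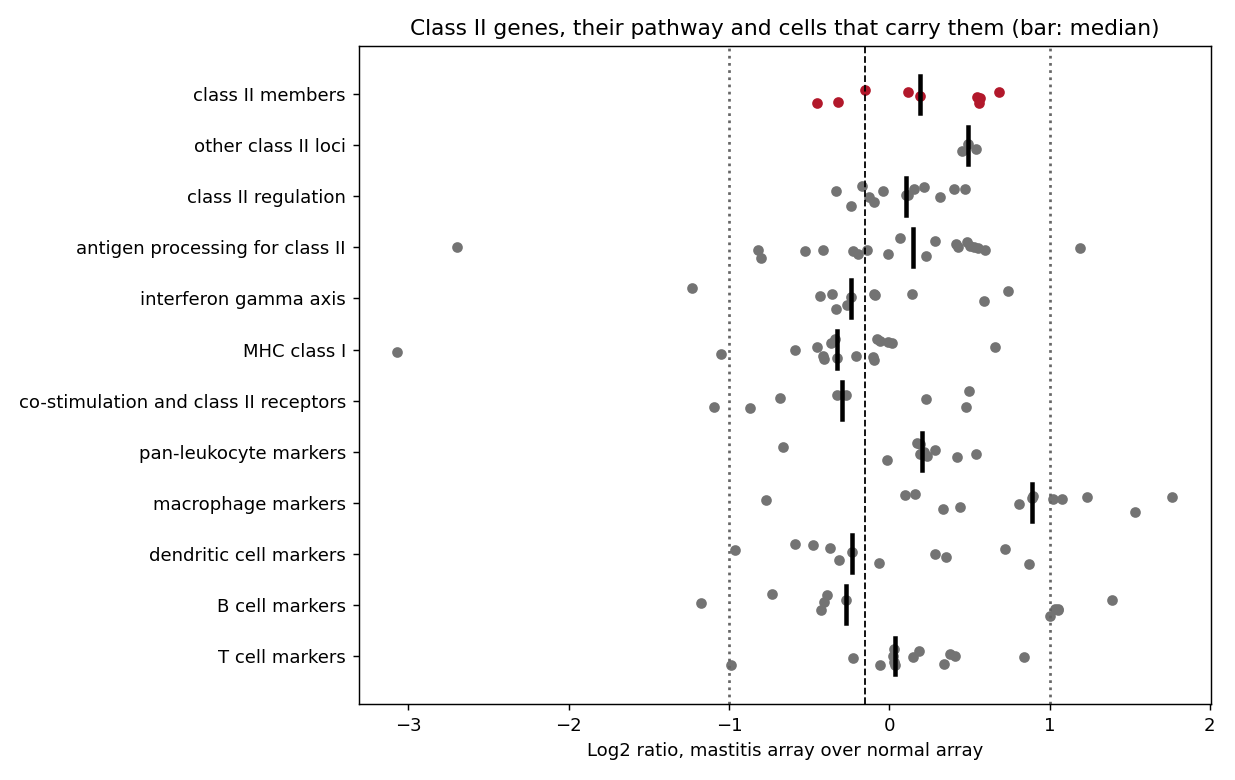
Measured genes of the class II members, in red, and of lists of related genes and cell markers, in grey, by scaled log2 ratio of mastitis to normal (horizontal axis). Each point is a gene, moved vertically for legibility, with list medians as black bars, the median over all genes (-0.15) dashed and 2-fold dotted. The class II members have a median of 0.19, other class II loci 0.49, MHC class I -0.33 and macrophage markers 0.89. The lists of neutrophil, secretory epithelium and stroma markers are not drawn.

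The direction of the smaller ratios depended on the processing. BOLA-DRA and BOLA-DQB were above 0 and above the median of all genes in 17 of 17 alternative settings, and BOLA-DRB3 in all 16 that gave it a value. CD74 and BOLA-DMB were above 0 in 16 of 17, the exception being the authors' table of log2 values as it stands, whose rows carry the values of the next probe. CIITA was above 0 in 5 of 15 settings and BOLA-DQA5 in 3 of 16. These counts are not independent checks and include the authors' table as it stands. Several scalings move all ratios by the same amount, leaving out saturated probes changed no member, and BOLA-DQB rests on 1 measured probe. Scaling on spike-in probes raised every ratio by the same amount, to 0.83 for BOLA-DRA and 0.95 for BOLA-DRB3, and the median of all genes to 0.12.

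**Figure D5:**
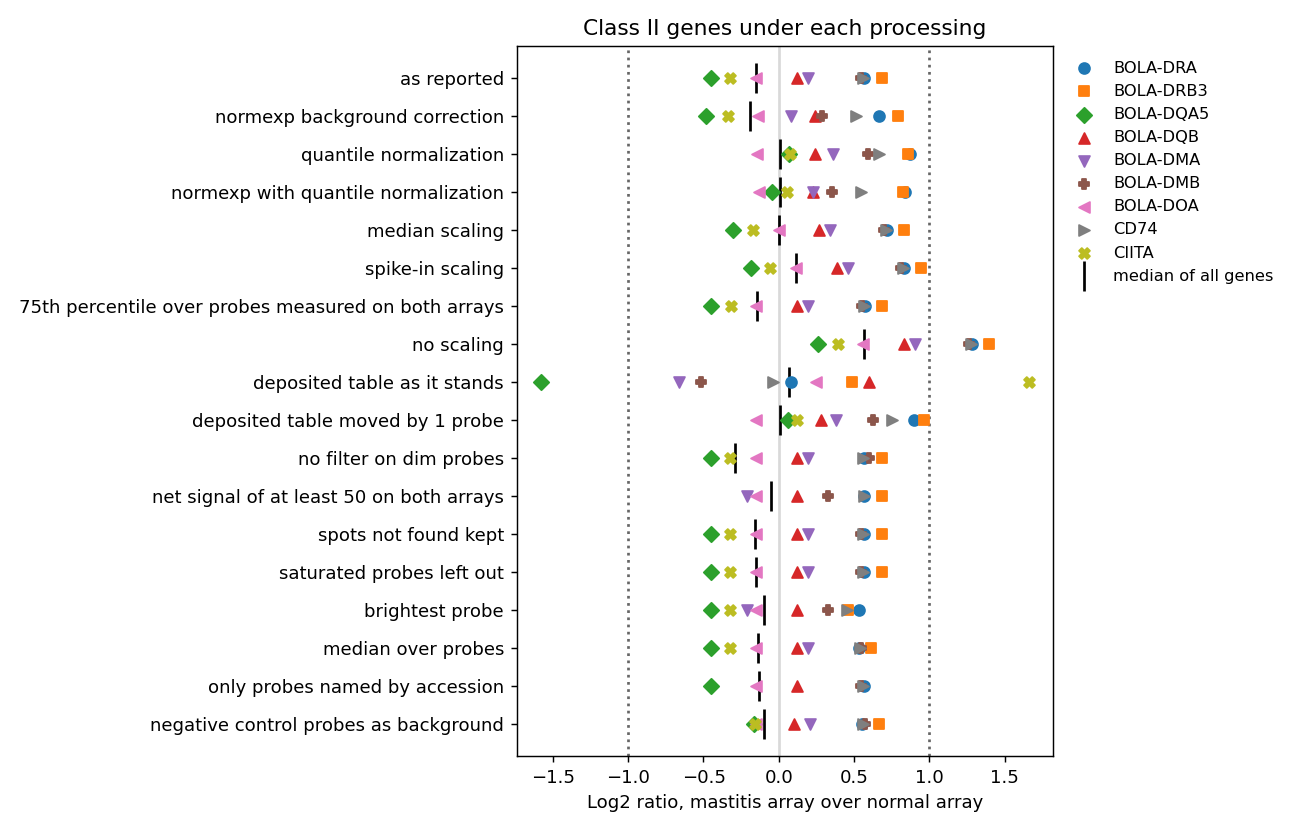
The 9 measured class II genes by log2 ratio of mastitis to normal (horizontal axis) under the reported processing (top row) and 17 alternatives. Coloured symbols are genes, black ticks the median of all genes in that setting, and dotted lines mark 2-fold. BOLA-DRA, BOLA-DRB3, BOLA-DMB and CD74 pass 2-fold only without scaling, where the median of all genes is 0.56, and the row of the authors' table as it stands differs from all others.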

How the data were processed

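Cy3-labelled RNA of mammary tissue was hybridized to an Agilent bovine array (design 023647), 1 mastitis and 1 normal, and per the file headers read with GenePix Pro 6.1. The labels name Agilent Feature Extraction and the methods an Affymetrix chip. The authors deposited spot intensity at 532 nm less a constant (26 and 24), close to the mean of the 604 dark corner spots. Each spot also has a deposited flag score and its percent of pixels at saturation. The authors further deposited a table of log2 values of unstated method (column medians 4.34 and 4.29), whose values followed the next probe in sorted order (Spearman 1.00, against 0.10 in the same row).

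Spots of a probe were averaged, flagged spots left out, and each array divided by its 75th percentile. Names came from RefSeq (ARS-UCD2.0), by accession for 26743 probes, by symbol for 5971 and by synonym for 151, while 1652 kept the file's name and 9136 had none. Members and lists were chosen with earlier results of these data known. All members are named. The genes named from the lists were picked for large ratios or for their role, and some lists have larger ratios that are not named. The number of arrays limits the precision. Python 3.11.15 and limma 3.58.1 in R 4.3.3 (normexp, offset 50) were used, and the calculation was tested on simulated data. The alternatives were other background corrections, scalings, filters, probe choices and folds. A planned search of promoters was not made, as no promoter sequence was given. The value of 1 listed gene is not reported here.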

Additional observations from a re-analysis of the deposited data

How the results depend on the processing

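No paired analysis was possible because each group has 1 array, and for the same reason no array could be left out. The count of 0 members at least 2-fold higher became 4 without scaling, where the median of the members was 0.91 and 20% of all genes were called higher, and 1 at 1.5-fold. With the authors' table as it stands it was 1 (CIITA, 1.66 on the log2 scale) and the count of 0 members lower became 1 (BOLA-DQA5, -1.58), but its rows hold the values of other probes. Moved by 1 probe, that table gave no member 2-fold apart. All other settings left both counts at 0, at 3-fold too, and the median of the members between 0.12 and 0.46. That median lay above the median of all genes in every setting, by 0.22 to 0.49 outside the table as it stands. Of 148 values of single members under the alternatives, 130 moved by less than the SD between probes. That SD is 0.45, so some of the 130 changed sign. CIITA did with quantile normalization (-0.32 as reported, 0.08) and BOLA-DMA with the brightest probe (0.19 as reported, -0.21). Some settings leave members unchanged, so the 130 are not a measure of stability. The background by negative control probes was added after the data were seen. Signal over background limits CIITA, BOLA-DQA5 and BOLA-DOB.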

Other observations

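Other lists of cell markers were read for context. Of 10 neutrophil markers, 8 were measured and 7 were lower on the mastitis array by at least 2-fold, against 9.14% of all genes. The median log2 ratio of the 8 was -1.67, or -1.52 relative to all genes. CXCR1 was at -4.09 from 1 of 3 probes with net signals of 8 and 83. With normexp CXCR1 was at -1.55 and 6 of the 8 were lower. Of 10 stroma and vessel markers, all were measured, with a median of 0.40, which became 0.05 with the normexp correction. Of these, 1 was at least 2-fold lower (the collagen gene COL3A1, -1.09, SD 0.50) and none was higher, against 9.14% and 2.26% of all genes. COL3A1 was within 2-fold with normexp (-0.89) or spike-in scaling (-0.83), and 3 of the 10 were at least 2-fold higher with the latter. Of 13 markers of secretory epithelium, 12 were measured and 6 were at least 2-fold lower, against 9.14% of all genes. The median of the 12 was -1.31, and KRT18 was the highest at 0.97 (SD 0.13).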
